A study of Mus musculus with 119 samples.

Results

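The Zfp36 family was followed across 5 mouse brain regions after adolescent exposure to delta-9-tetrahydrocannabinol (THC), the main psychoactive compound of cannabis. Its 3 members, Zfp36, Zfp36l1 and Zfp36l2, were read from a total of 55291 gene symbols. The members were chosen by measured values, since Zfp36l2 was picked because its CPM was lower in the ventral tegmental area (VTA) of THC-treated females, libraries FTL_357 to FTL_368, and Zfp36 and Zfp36l1 were taken as its relatives. The difference between THC- and vehicle-treated mice in the female VTA is therefore given as a description, with no test, for all 3 members. Female VTA libraries also enter the fits of region and sex, so member values with the VTA there are tested in males only or given without a test.

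Members of the family bind AU-rich stretches in the tails of messenger RNAs through a pair of CCCH zinc fingers and recruit the CCR4-NOT deadenylase, which shortens the poly(A) tail and leads to decay of the mRNA. Zfp36 (tristetraprolin) is best known for limiting cytokine mRNAs such as Tnf in myeloid cells and is itself induced quickly by growth factors and inflammatory signals. Zfp36l1 and Zfp36l2 are known for restraining the cell cycle in lymphocyte development and for limiting growth factor mRNAs such as Vegfa.

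RNA came from punches of the VTA, nucleus accumbens (NAc), prefrontal cortex (PFC), amygdala (Amy) and dorsal medial striatum (DMS) of wild-type C57BL/6 mice. The labels name C57BL/6J, an age of 11 weeks and, for the DMS, the dorsolateral striatum, and the study's own text differs on the substrain, the age and the name of the striatal region. THC-treated mice received 10 mg/kg by intraperitoneal injection on each of 21 days, from postnatal day 28 to 48. Vehicle-treated mice received ethanol, Tween and saline, and both groups were tested behaviorally from postnatal day 63. Each of the 20 groups of region, sex and treatment held 6 libraries, except 5 for the VTA of vehicle-treated males. A library is 1 region of 1 mouse. By the study's methods all 5 regions were punched from each brain, so libraries of different regions share mice, while the labels do not say which. The tests between regions take all libraries as separate and make no allowance for this. Punches are bulk tissue, in which fewer cells of a type and less RNA per cell cannot be told apart.

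The 119 libraries held between 3090998 and 77042133 counts, with a median of 22092612. Levels are CPM, the count of a gene scaled to library size, after TMM scaling over all libraries. Region markers fitted the labelled tissue: Slc6a3, the dopamine transporter, had a mean of 1181 CPM in the VTA and below 1 CPM elsewhere, and Slc17a7, a glutamate transporter of cortical neurons, had a mean of 1903 CPM in the PFC. In the Amy, library FTL_344, labelled female, had 0.293 CPM of Xist and 61.9 CPM of the Y-linked Ddx3y, and library FTL_356, labelled male, had 489 CPM of Xist and 0 CPM of Ddx3y. The Amy values of Zfp36l2 for THC and sex are therefore also given without both libraries, while its Amy correlations are not.

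All 3 genes lie on the minus strand of the mouse genome (GRCm38, the same assembly as mm10). Zfp36 lies at chr7:28376784-28380253, Zfp36l1 at chr12:80107754-80113013 and Zfp36l2 at chr17:84183931-84187947. The first-listed transcript of each gene in GENCODE M21 has 2 exons, of 2790, 2990 and 3530 bases in all. Each gene is overlapped on the opposite strand by an annotated noncoding gene. For Zfp36 this is Gm44710, which had at most 7 counts in any library. Another relative, Zfp36l3, had 0 counts in 76 of the 119 libraries and at most 5 in any, and was not followed.

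Promoter windows from RefSeq, on GRCm38.p6, were matched for Zfp36 and Zfp36l1, and not for Zfp36l2. The windows run from 250 bases before to 50 after the annotated start. They are shown because Zfp36 is a textbook early response gene, and the binding element of serum response factor, the CArG box, lies in its window. The CArG box of Zfp36 is in capitals, within 30 bases at chr7:28379267-28379296 on the minus strand, and a TATAAA of Zfp36l1 is in capitals, within the 120 bases before its start at chr12:80113014-80113133 on the minus strand, both written 5′ to 3′.
Zfp36: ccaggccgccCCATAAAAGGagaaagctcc
Zfp36l1: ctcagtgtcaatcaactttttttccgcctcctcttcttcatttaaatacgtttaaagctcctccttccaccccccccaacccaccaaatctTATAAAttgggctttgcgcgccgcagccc

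The CArG box spans bases 58 to 49 before the RefSeq start of Zfp36, and Zfp36l1 had no CArG box in its window on either strand. A CArG box was present in 1.63% of 32851 promoter windows, searched on both strands, and in 1 of 18 windows of the immediate early genes listed here, that of Egr2. TATAAA, on either strand, was present in 13.6% of all windows, including that of Zfp36l1 and not that of Zfp36. A GENCODE transcript of Zfp36 starts further upstream, so that the stretch shown is transcribed in that model.

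Zfp36 was far less abundant than its relatives in every region. Per kilobase of the first-listed transcript, the vehicle libraries of the VTA had 1.17 ± 0.282 CPM of Zfp36, 8.94 ± 1.32 of Zfp36l1 and 12.03 ± 1.54 of Zfp36l2 (SD, n = 11). In the PFC these levels were 0.506 ± 0.102, 4.71 ± 0.593 and 5.80 ± 0.419 CPM per kilobase (SD, n = 12). The order Zfp36l2, Zfp36l1, Zfp36 held for the mean of each of the 5 regions. The ratio of Zfp36l2 to Zfp36 per kilobase was lowest in the DMS, at 8.61, and highest in the Amy, at 12.9. The ratio of Zfp36l2 to Zfp36l1 was between 1.23 in the PFC and 1.58 in the NAc. Zfp36 was read with few counts, with a median of 30 per vehicle library in the PFC, where counting alone gives an error of 18.3%. For Zfp36l2 in the same libraries the median was 451 counts, with a counting error of 4.71%.

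**Figure D1:**
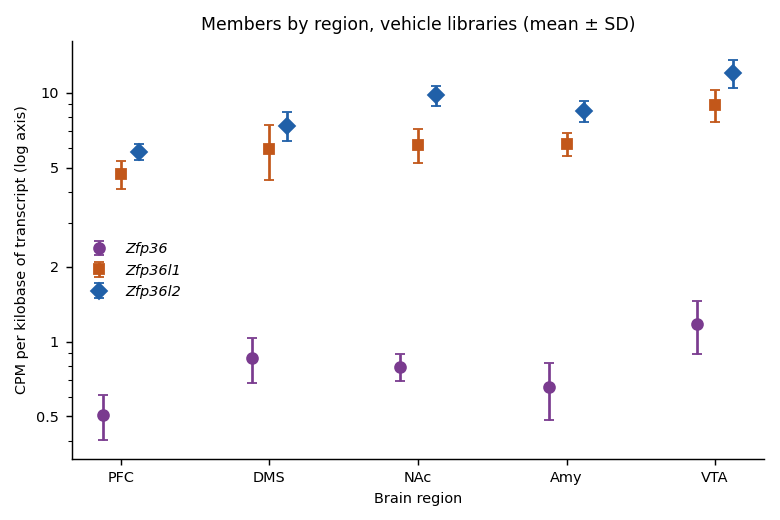
Mean ± SD of TMM-scaled CPM per kilobase of transcript (vertical log axis) for the 3 members in the vehicle libraries of each region (12 libraries, 11 in the VTA). Zfp36, at 0.506 to 1.17, lies below both relatives in all 5 regions, and each gene is lowest in the PFC and highest in the VTA.

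The regional distribution of the family was examined in the 59 vehicle libraries, with sex as a covariate. Libraries of different regions share mice, for which the tests make no allowance. The PFC and DMS were deposited in a separate table from the NAc, Amy and VTA, so pairs across the tables hold any difference between them. All 3 members were lowest in the PFC and highest in the VTA. The vehicle libraries of the female VTA belong to the contrast that picked Zfp36l2, so pairs with the VTA are given as values over both sexes and tested in males only.

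Zfp36l2 had a mean of 42.5 ± 5.44 CPM in the VTA (SD, n = 11), then 34.4 ± 3.05 in the NAc, 29.7 ± 2.92 in the Amy, 26.0 ± 3.56 in the DMS and 20.5 ± 1.48 in the PFC (SD, n = 12). The libraries of the PFC, between 18.3 and 23.5 CPM, did not overlap those of the NAc, Amy or VTA. The share of all genes without overlap was not counted, for these pairs or those below. The log2 fold change from edgeR, PFC minus VTA, was -1.06 (SE 0.06). In males only this value was -0.96 (SE 0.07, edgeR adjusted p = 1.02e-13). The NAc exceeded the Amy by 0.25 (SE 0.06, edgeR adjusted p = 0.000296), which is under the log2 fold change of 0.4 asked of a call, and the 6 pairs without the VTA all had an adjusted p under 0.05. The closest neighbors in this order were the DMS and Amy, which differed by -0.14 (SE 0.06, edgeR adjusted p = 0.0262).

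Zfp36l1 had a mean of 26.7 ± 3.94 CPM in the VTA (SD, n = 11), then 18.6 ± 1.956 in the Amy, 18.5 ± 2.94 in the NAc, 17.7 ± 4.39 in the DMS and 14.1 ± 1.77 in the PFC (SD, n = 12). Over both sexes the 3 middle regions did not differ beyond their spread, with edgeR adjusted p-values of 0.662 for DMS against NAc, 0.886 for DMS against Amy and 0.785 for NAc against Amy. DMS minus NAc was -0.29 in females only (SE 0.12, edgeR adjusted p = 0.0425) and 0.16 in males only (SE 0.12, edgeR adjusted p = 0.273), and neither was called. The libraries of the PFC, at most 16.4 CPM, and those of the VTA, at least 20.6 CPM, did not overlap. PFC minus VTA was -0.92 (SE 0.09), and in males only -0.81 (edgeR adjusted p = 9.89e-07).

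Zfp36 had a different order, with the DMS next to the VTA. Its mean was 3.28 ± 0.786 CPM in the VTA (SD, n = 11), then 2.39 ± 0.497 for the DMS, 2.21 ± 0.269 for the NAc, 1.82 ± 0.469 for the Amy and 1.41 ± 0.284 in the PFC (SD, n = 12). The DMS and NAc did not differ beyond their spread (log2 fold change 0.13, SE 0.12, edgeR adjusted p = 0.367). PFC minus VTA was -1.25 (SE 0.13), although 1 PFC library of 2.14 CPM lay above the lowest VTA library of 2.09 CPM. That VTA library, FTL_371, rests on 7 counts of Zfp36. In males only PFC minus VTA was -1.05 (edgeR adjusted p = 1.85e-06).

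A call required an edgeR FDR below 0.05 together with a log2 fold change of 0.4 or more in either direction. Among the 18 pairings of a member with 2 regions other than the VTA, 6 were called. Of all 17476 genes, the share called was 49.3% for PFC against DMS, 45.2% for PFC against NAc, 37.4% for PFC against Amy, 43.0% for DMS against Amy, 30.8% for DMS against NAc and 24.7% for NAc against Amy. The 6 were 3 of Zfp36, 1 of Zfp36l1 and 2 of Zfp36l2. The 12 pairings with the VTA hold the female VTA libraries over both sexes and were not counted there. Of all genes, 55.0% were called for PFC, 57.4% for DMS, 52.0% for NAc and 43.4% for Amy against VTA.

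In males only, 7 of the 12 pairings with the VTA were called, where between 41.3% and 55.2% of all genes were. These were Zfp36 against the PFC, NAc and Amy, Zfp36l1 against the PFC and NAc, and Zfp36l2 against the PFC and DMS. The other 6 regional pairs gave 6 calls of 18 in males, where the share of all genes was between 18.0% and 47.3%. When the THC libraries were compared in place of the vehicle libraries, 4 of the 18 pairings without the VTA were called, where between 27.2% and 49.8% of all genes were. Pairings with the VTA hold the female VTA libraries here and were not counted. PFC minus VTA was then -0.82 for Zfp36, -0.64 for Zfp36l1 and -0.78 for Zfp36l2.

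Lists of markers for glia and vessels were compared between the PFC and VTA in the same fits. Of all 17476 genes there, 5176 were called higher in the VTA and 4433 in the PFC. Between the PFC and VTA, 10 of 10 endothelial markers, 7 of 8 markers of pericytes and vascular smooth muscle, 8 of 9 astrocyte markers and 9 of 9 oligodendrocyte markers were called higher in the VTA, with median PFC minus VTA values of -0.91, -1.02, -1.18 and -2.17, against -0.03 over all genes. Immediate early genes, the transcription factors and other genes induced within minutes of stimulation, had the other direction, with 14 of 22 called higher in the PFC and 3 higher in the VTA, and a median of 1.43. The part of cell type content in the regional levels of the family was not tested.

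**Figure D2:**
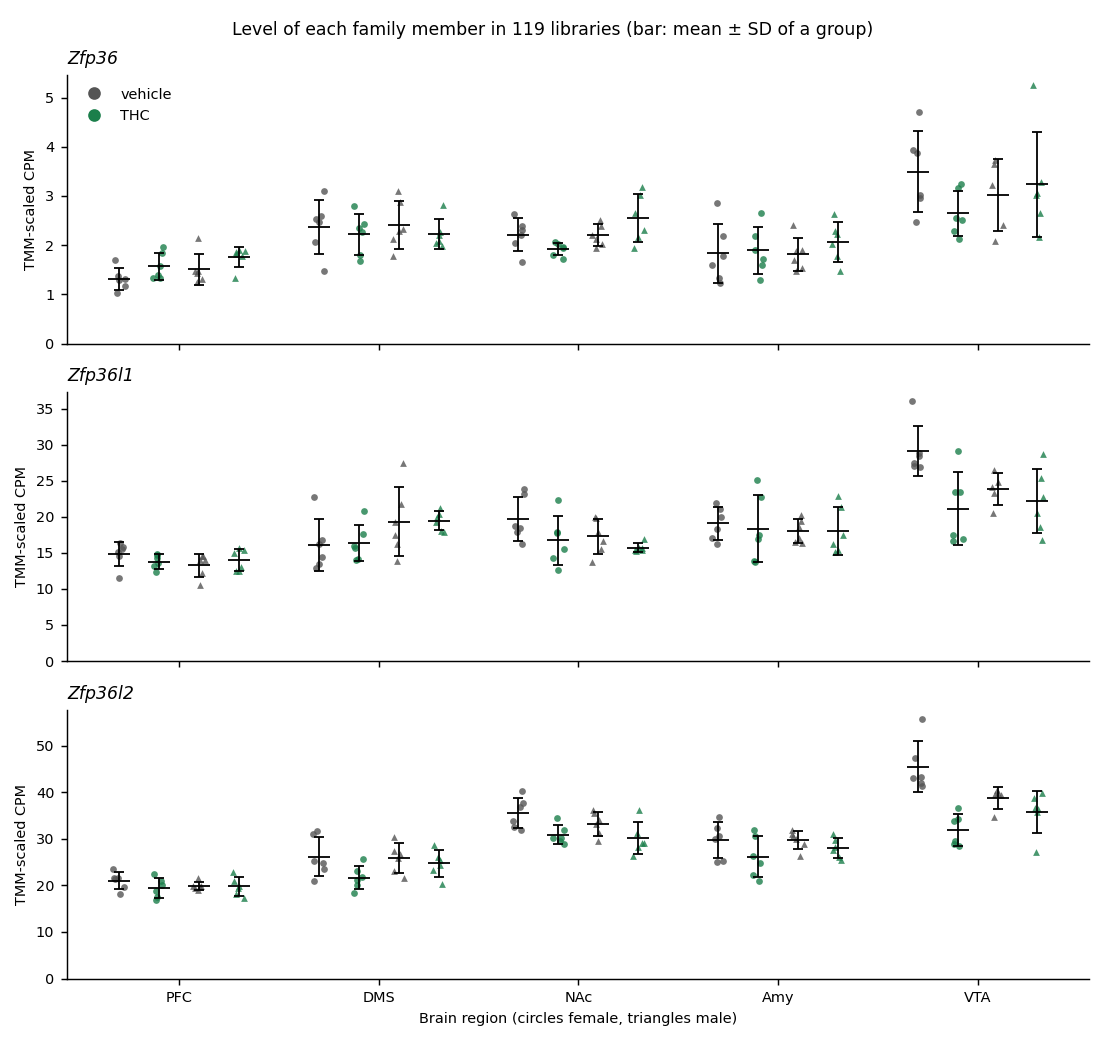
TMM-scaled CPM (vertical axes from 0) of each member in all 119 libraries, by region, with vehicle in grey, THC in green, circles for females, triangles for males, and bars for the mean ± SD of a group. The 6 female VTA THC libraries, between 28.4 and 36.7 CPM of Zfp36l2, lie below the 6 vehicle libraries at 41.4 CPM or more, and in the other regions the treatment groups overlap for every member.

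The comparison that picked Zfp36l2 was the female VTA. Its vehicle libraries ranged from 41.4 to 55.8 CPM with a median of 43.2, and its THC libraries from 28.4 to 36.7 CPM with a median of 31.7. The groups did not overlap, and the means were 45.5 ± 5.47 CPM with vehicle and 31.9 ± 3.43 CPM with THC (SD, n = 6), a log2 fold change of -0.51. The share of the 15747 genes of that comparison past the limits of a call was 0.0%, and the share without overlap was not counted.

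Both relatives were lower in the same THC libraries, which shared their tissue with the picked gene. Zfp36l1 ranged from 26.9 to 36.0 CPM (median 27.9) in vehicle and from 16.6 to 29.1 CPM (median 20.4) in THC libraries, a log2 fold change of -0.45. Of the THC libraries, 5 lay below every vehicle library, and the exception was FTL_365. Zfp36 ranged from 2.46 to 4.70 CPM (median 3.45) in vehicle and from 2.13 to 3.25 CPM (median 2.53) in THC libraries, a log2 fold change of -0.38, and its groups overlapped, with 2 THC libraries below every vehicle library.

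FTL_365 stood apart within the female VTA THC group. Its 5 hemoglobin and erythroid markers summed to 3828 CPM, where the other 5 libraries had between 111 and 1105 CPM, and its 8 markers of pericytes and vascular smooth muscle summed to 355.8 CPM, where the others had between 175 and 240. Without FTL_365 the log2 fold change was -0.57 for Zfp36l1, -0.53 for Zfp36l2 and -0.46 for Zfp36. Without vehicle library FTL_358, the highest of its group for each member, the values were -0.37, -0.44 and -0.28.

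Levels of other markers in these female VTA groups are given for scale. The 9 microglial markers all had a log2 fold change below 0, with a median of -0.30, and their sum went from a range of 353.01 to 454 CPM in vehicle to 281.9 to 407 CPM in THC libraries. The 9 astrocyte markers had a median of -0.18, with sums of 2755 to 3552 CPM in vehicle and 2273 to 3584 CPM in THC libraries. The 10 endothelial markers had a median of -0.07 and sums of 294.4 to 340.9 and 277.1 to 370.8 CPM, and the 8 dopaminergic markers a median of -0.35 and sums of 2846 to 4033 and 1214 to 4037 CPM. The 5 red blood cell markers were all below 0 with a median of -0.13, and summed to between 918 and 1634 CPM in vehicle libraries, with a mean of 1171. In THC libraries they summed to 3828 CPM in FTL_365 and to between 111 and 1105 CPM in the others, with a mean of 1046 CPM over all 6. The 8 markers of pericytes and vascular smooth muscle had a median of -0.16 and summed to 214 to 265.7 CPM in vehicle libraries. In THC libraries these summed to 355.8 CPM in FTL_365 and to between 175 and 240 CPM in the others. No marker of these 6 lists was at 0 in a library. Their part in the level of Zfp36l2 was not tested.

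THC- and vehicle-treated mice were then compared in the other 9 combinations of region and sex, whose libraries the choice of Zfp36l2 did not use. The 4 female groups among them come from the same mice as the female VTA libraries. None of the 27 member values was called. The share of all genes called was 0.0% in 7 of these comparisons, 0.0127% in the female DMS and 1.57% in the female Amy. Of all genes, 5.84% had an unadjusted p under 0.05 in the female PFC, 4.07% in the male PFC, 8.9% in the female DMS, 1.93% in the male DMS, 4.61% in the female NAc and 16.7% in the male NAc. In the Amy this share was 21.9% in females and 1.84% in males, and in the VTA 9.02% in females and 5.92% in males. At this level 2 of the 27 member values passed by edgeR, and an exact two-sided permutation test of log2 CPM passed 1, with a smallest p adjusted over the 27 values of 0.409. DESeq2 called none of the 27.

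Zfp36l2 in the male VTA showed a small difference in the same direction as in females. The vehicle libraries had 34.6, 39.4, 39.6, 39.9 and 40.6 CPM, and the 6 THC libraries ranged from 27.2 to 39.8 CPM with a median of 36.6. The groups overlapped, with 1 THC library below every vehicle library, and the log2 fold change was -0.13 (SE 0.08, edgeR adjusted p = 0.819). The 95% interval, here and below from edgeR's degrees of freedom, ran from -0.31 to 0.05, and the difference from the females was not tested. The vehicle library of 34.6 CPM, FTL_371, rests on 116 counts of Zfp36l2, where the other 4 had between 761 and 2463.

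In the NAc, Zfp36l2 was lower in THC libraries of both sexes without being called. In females, the vehicle libraries ranged from 32.0 to 40.4 CPM (median 35.3) and the THC libraries from 28.9 to 34.4 CPM (median 30.2). In all, 5 of 6 THC libraries lay below all vehicle libraries. The log2 fold change was -0.22 (SE 0.06, unadjusted p = 0.00298, adjusted p = 0.991 by edgeR), where 4.61% of all genes had an unadjusted p under 0.05. The exact permutation test gave an unadjusted p of 0.0152, with 0.00216 the smallest that 6 against 6 libraries allow.

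In NAc libraries of males, Zfp36l2 ranged from 29.5 to 36.2 CPM (median 33.6) with vehicle and from 26.4 to 36.3 CPM (median 29.2) with THC. Of these, 4 of 6 THC libraries lay below all vehicle libraries and 1 lay above them. The log2 fold change was -0.15 (SE 0.07, edgeR adjusted p = 0.308). Sums of neuron markers in the NAc are given for scale. The 6 markers of GABAergic interneurons summed to between 1603 and 1653 CPM with vehicle and between 1665 and 1957 CPM with THC in females. In males these sums were 1566 to 1831 and 1602 to 1762 CPM. The 9 markers of medium spiny neurons, the projection neurons of the striatum, had sums of 3301 to 4978 and 3849 to 5089 CPM in females. In males they had a mean sum of 3988 CPM with vehicle and 5144 CPM with THC, with ranges of 3080 to 4564 and 3989 to 6276 CPM. No gene of either list was called in the 9 comparisons. The 9 oligodendrocyte markers summed to 3601 to 4741 CPM with vehicle and 3425 to 4183 CPM with THC in females, and to 3967 to 6677 and 3613 to 5656 CPM in males. For astrocytes the female sums were 1488 to 1643 and 1569 to 1793 CPM, and for microglia 288.2 to 334.7 and 287.3 to 334.8 CPM. The male sums were 1533 to 1776 and 1484 to 1684 CPM for astrocytes, with means of 1662 and 1568. For microglia they were 329.9 to 411 and 325.9 to 385.5 CPM. The female means for astrocytes were 1568 and 1673 CPM. The part of these cell types in the NAc values of Zfp36l2 was not tested.

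In the female DMS, Zfp36l2 ranged from 21.004 to 31.7 CPM (median 25.02) in vehicle and from 18.4 to 25.6 CPM (median 21.5) in THC libraries. The groups overlapped, with 2 THC libraries below all vehicle libraries. The log2 fold change was -0.27 (SE 0.10, unadjusted p = 0.0177, adjusted p = 0.436 by edgeR), the most negative of the 9. In males the DMS value was -0.06 (SE 0.09), with vehicle libraries from 21.6 to 30.4 CPM and THC libraries from 20.2 to 28.6 CPM.

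Differences in the PFC and Amy were smaller than the spread of the libraries. In the PFC the log2 fold change of Zfp36l2 was -0.11 (SE 0.07) in females and -0.01 (SE 0.06) in males. In the Amy it was -0.20 (SE 0.11) in females and -0.08 (SE 0.07) in males. Without the library labelled female (FTL_344) the female Amy value was -0.26, and without the library labelled male (FTL_356) the male value was -0.08, and neither was called.

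The log2 fold change of Zfp36l2 was thus below 0 in each of these 9 comparisons, as it was in every alternative fit tried. Of the 14541 genes tested in all 9, 60 (0.413%) were below 0 in each. The regions of 1 sex come from the same mice, so the 9 values are not independent of each other or, in females, of the VTA contrast that picked the gene, and no test was made of their shared direction. Zfp36l1 was below 0 in 5 of the 9 and Zfp36 in 4.

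Zfp36l1 had log2 fold changes from -0.24 in the female NAc (SE 0.14, edgeR adjusted p = 0.991) to 0.07 in the male PFC (SE 0.08). Its female NAc libraries ranged from 16.2 to 23.8 CPM (median 18.6) with vehicle and from 12.7 to 22.3 CPM (median 16.7) with THC. In the male DMS, where the value was 0.01, the vehicle libraries spread from 13.9 to 27.5 CPM and the THC libraries from 18.0 to 21.2 CPM. The groups overlapped in all 9 comparisons.

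Zfp36 had values of either sign. Its value was 0.26 (SE 0.17) in the female PFC and 0.22 (SE 0.16) in the male PFC. PFC libraries of females ranged from 1.03 to 1.71 CPM with vehicle and from 1.32 to 1.97 CPM with THC. In the NAc it was -0.22 (SE 0.14) in females and 0.19 (SE 0.15) in males. The sex by THC interaction there, the male minus the female value, was 0.41 (SE 0.19, unadjusted p = 0.0418, adjusted p = 0.438 by edgeR). NAc libraries of females ranged from 1.67 to 2.64 CPM with vehicle and from 1.73 to 2.07 CPM with THC, and those of males from 1.93 to 2.51 and from 1.94 to 3.19 CPM.

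The precision differed between members. The 95% interval of Zfp36 held a log2 fold change of 0.4 in size in all 9 comparisons, with a largest half-width of 0.47 in the female Amy. For Zfp36l1 this was so in 1, the female NAc (-0.53 to 0.05), and for Zfp36l2 in 2, the female DMS (-0.49 to -0.05) and the female Amy (-0.44 to 0.05). A change of the size asked of a call is thus within the interval in these 12 of 27.

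With the sexes together and sex as a covariate, none of the 12 member values of the PFC, DMS, NAc and Amy was called, where the share of all genes called was 0.0% in each. At an unadjusted p under 0.05, 5 of the 12 passed, where 10.2% of all genes did so for the NAc, 7.05% for the Amy, 4.88% for the DMS and 4.81% for the PFC. For Zfp36l2 these were the NAc (-0.18, SE 0.05, unadjusted p = 0.000886, adjusted p = 0.315 by edgeR), the DMS (-0.16, edgeR adjusted p = 0.988) and the Amy (-0.14, edgeR adjusted p = 0.706). The other two were Zfp36l1 in the NAc (-0.19, edgeR adjusted p = 0.443) and Zfp36 in the PFC (0.24, SE 0.11, unadjusted p = 0.0384, adjusted p = 0.999 by edgeR). Without FTL_344 and FTL_356 the Amy value of Zfp36l2 was -0.17 (edgeR adjusted p = 0.992).

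**Figure D3:**
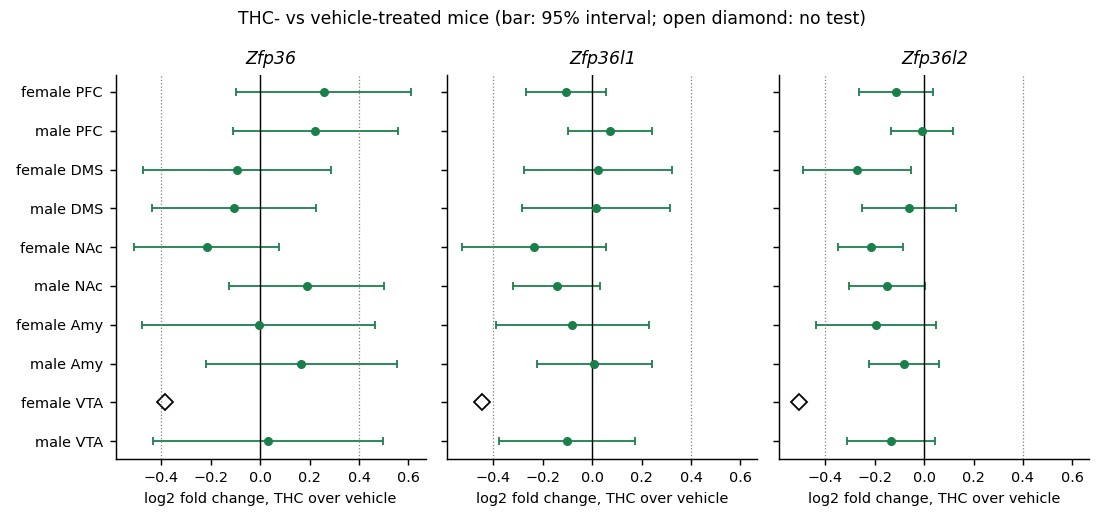
Log2 fold change of each member, THC over vehicle (horizontal axis), in the 10 combinations of region and sex, with bars for the 95% interval from edgeR, dotted lines at the 0.4 asked of a call, and an open diamond with no bar for the female VTA, the comparison that picked Zfp36l2. The Zfp36l2 points lie between -0.27 and -0.01 outside the female VTA, and those of Zfp36 lie on both sides of 0.

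The members were also compared between the sexes and for a different response to THC. None of the 12 interaction values of the PFC, DMS, NAc and Amy was called, where the share of all genes called was 0.0% in 3 regions and 0.0059% in the Amy. At an unadjusted p under 0.05, 1 of the 12 passed, where the share of all genes was 15.8% in the Amy, 11.0% in the NAc, 5.9% in the DMS and 5.87% in the PFC (6.16% in the VTA, where the members were not tested). None of the 12 values for sex in these 4 regions was called either. The share of all genes called was highest in the DMS, at 2.64%, and lowest in the Amy, at 0.0118%, and 1 of the 12 had an unadjusted p under 0.05, where 27.8% of all genes in the DMS did. In the Amy these values rest on the labels of FTL_344 and FTL_356. Without both libraries 0.0822% of all genes were called for sex and 0.0% for the interaction, and Zfp36l2 had 0.08 for sex (edgeR adjusted p = 0.902) and 0.18 for the interaction (edgeR adjusted p = 0.477), where with them it had 0.06 and 0.11. The value nearest to a call was that of Zfp36l1 in the DMS, higher in males by 0.27 (SE 0.10, unadjusted p = 0.0137, adjusted p = 0.0843 by edgeR). DMS libraries of females ranged from 12.9 to 22.8 CPM of Zfp36l1 with vehicle and from 14.02 to 20.7 CPM with THC, and those of males from 13.9 to 27.5 and from 18.0 to 21.2 CPM.

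Within a region, members were compared library by library after subtracting each group mean. Over 3 pairs of members in 5 regions, 15 correlations were computed, each with 100000 permutations within groups. Since the female VTA libraries picked Zfp36l2, the VTA entered the adjustment through its 11 male libraries, a choice made after seeing the data, and the correlations over all 23 VTA libraries are given without a p. Of the 12 correlations outside the VTA, 11 were above 0 and 4 had an adjusted p for r under 0.05, while none had for rho. With all VTA libraries in the adjustment, 5 passed for r and 4 for rho.

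Zfp36l1 and Zfp36l2 moved together by r in 3 of these 4 regions. In the Amy r was 0.648 (rho 0.560), in the DMS 0.569 (rho 0.557) and in the PFC 0.546 (rho 0.522), each with an adjusted permutation p of 0.0355 for r and 0.0564 for rho. Without the 2 libraries farthest from the median of Zfp36l1, r was 0.637 in the Amy, 0.388 in the DMS and 0.520 in the PFC. In the NAc r was 0.232 (permutation p = 0.248), and 0.524 without the 2 farthest libraries. Over the 23 VTA libraries r was 0.645 and rho 0.660. Among the 11 males r was 0.417 and rho 0.300 (permutation p = 0.361 and 0.433, adjusted 0.399 and 0.486), and r was -0.20 without FTL_379 and FTL_376.

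Zfp36 went with Zfp36l2 in the Amy (r = 0.587, rho 0.585, adjusted permutation p = 0.0355 for r and 0.0564 for rho), with an r of 0.442 without the 2 farthest libraries. With Zfp36l1 in the Amy r was 0.485 (adjusted permutation p = 0.0741). In the PFC, Zfp36 and Zfp36l2 had an r of -0.270 (permutation p = 0.214). Over the 23 VTA libraries r was 0.603 with Zfp36l2 and 0.578 with Zfp36l1. In the VTA of males these were 0.556 and 0.567 (adjusted permutation p = 0.253 and 0.212), and without FTL_376 and FTL_379 the latter was -0.06. Differences between regions in these correlations were not tested.

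Each member was then compared with scores for 7 lists of genes, the score of a library being the mean standardized deviation of the listed genes from their group means. Of 105 correlations, 84 were outside the VTA, where 2 had an adjusted p for r under 0.05 and 1 for rho, all of Zfp36l1, with the VTA entered by its males. In the VTA of males 3 of 21 passed for r and 2 for rho, also all of Zfp36l1. Over all 23 VTA libraries, given without a p, Zfp36l1 had an r of 0.900 with pericytes and vascular smooth muscle (rho 0.848), 0.825 with astrocytes (rho 0.829), 0.838 with red blood cells (rho 0.806) and 0.762 with endothelial cells (rho 0.725). Without FTL_365 and FTL_376, the libraries farthest from the median of Zfp36l1, these were 0.840, 0.775, 0.742 and 0.612.

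In the 11 male VTA libraries the same lists had high values. The r of Zfp36l1 was 0.963 with pericytes and vascular smooth muscle (rho 0.982, adjusted permutation p = 0.00367 for r and 0.0115 for rho) and 0.871 with red blood cells (rho 0.882, adjusted permutation p = 0.007 and 0.0122). With astrocytes it was 0.799 (rho 0.755, adjusted permutation p = 0.0207 and 0.0514) and with endothelial cells 0.804 (rho 0.791, adjusted permutation p = 0.0609 and 0.0794). Without FTL_379 and FTL_376 these were 0.938, 0.782, 0.732 and 0.804. Zfp36l2 in the same libraries had an r of 0.396 with pericytes and vascular smooth muscle (adjusted permutation p = 0.621) and of 0.131 with red blood cells.

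In the DMS, Zfp36l1 went against microglia (r = -0.899, rho -0.750, adjusted permutation p = 0.00105 for r and 0.0121 for rho) and with astrocytes (r = 0.745, rho 0.645, adjusted permutation p = 0.0252 and 0.0514). Without FTL_285 and FTL_301 these were -0.811 and 0.572. In the NAc, r with pericytes and vascular smooth muscle was 0.651 (rho 0.643, adjusted permutation p = 0.052 and 0.0514), and 0.600 without the 2 farthest libraries.

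Of Zfp36 and Zfp36l2, 2 correlations each outside the VTA had an adjusted p for rho under 0.05 only with all VTA libraries in the adjustment. For Zfp36l2 these were pericytes and vascular smooth muscle in the PFC (r = 0.441, rho 0.586) and oligodendrocytes in the Amy (r = 0.481, rho 0.604). For Zfp36 they were endothelial cells (r = 0.563, rho 0.592) and oligodendrocytes (r = 0.508, rho 0.593) in the Amy. With the VTA entered by its males, each had an adjusted permutation p of 0.0514 for rho. The largest r in size of Zfp36l2 with these lists was -0.505, with oligodendrocytes in the DMS (rho -0.557). For immediate early genes, r with Zfp36 lay between -0.175 and 0.189 over the 5 regions, with none past an adjusted p of 0.05. The libraries of a region share dissection and differ in depth, and the part of these in the correlations was not tested.

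**Figure D4:**
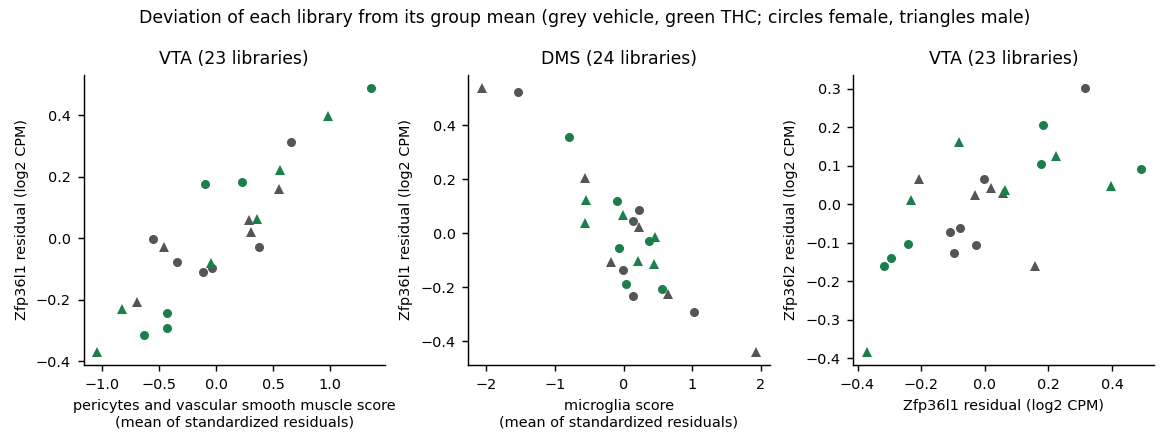
Deviation from the group mean in log2 CPM (vertical axes) of Zfp36l1 (left and middle) and Zfp36l2 (right) against the score of pericytes and vascular smooth muscle in the VTA (left), the score of microglia in the DMS (middle) and Zfp36l1 in the VTA (right), with vehicle in grey, THC in green, circles for females and triangles for males. Zfp36l1 climbs with the vascular score (r = 0.900), descends with the microglial score (r = -0.899) and Zfp36l2 climbs with Zfp36l1 (r = 0.645).

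The genes whose pattern was most like each member were named as a description. By Pearson r of the deviations from group means over all 119 libraries, among 18932 genes, Zfp36l1 was nearest to Aebp1, Prelp, Plxnb2, Vim and Mxra8 (r from 0.744 to 0.780). Zfp36l2 was nearest to Srebf1, a transcription factor of lipid synthesis (r = 0.614), then Zfp36l1 (0.548), the cholesterol exporter Abca1 (0.542), the receptor Notch1 (0.540) and the transcription factor Sox2 (0.512). Zfp36 was nearest to Unc93b1, Atf5, Sorbs3, Hadha and Srpk3, with lower values from 0.424 to 0.473. Its own relatives ranked 39 (Zfp36l2, r = 0.378) and 44 (Zfp36l1, r = 0.376) among all genes.

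Over the 20 group means of log2 CPM, which carry the differences between regions, the nearest genes were others. Zfp36l2 was nearest to Ednrb, Rftn2, Mlc1, Mmp14 and Gja1 (r from 0.944 to 0.965). Zfp36l1 was nearest to Gm16499, Bdh2, Hacl1, Hdc and Fxyd1 (0.933 to 0.944), and Zfp36 to Npepl1, Sorbs3, Id1, C030006K11Rik and Nop53 (0.941 to 0.952). The 20 means include the female VTA groups, and groups of a region share tissue. Sorbs3 was the only gene on both lists of a member.

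The machinery through which the family acts was measured in the same comparisons. Of 19 subunits and partners of the CCR4-NOT and PAN deadenylases and 25 tested genes of decapping and exonucleolytic decay, none was called in any of the 9 comparisons. Their medians lay between -0.02 and 0.08 and between -0.04 and 0.06, where the median of all genes was between -0.01 and 0.00. None of 19 other proteins that bind AU-rich or other mRNA tails was called, and none of 14 kinases, phosphatases and adapter proteins that regulate the family. In the female VTA, given as a description, the medians of these 4 lists were -0.03, 0.02, 0.06 and 0.00.

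Of 25 mRNAs known as targets, 14 passed the filter on low counts. Cytokines such as Tnf and Il6 are on this list, and a listed gene that did not pass has no value. Plk3, a polo-like kinase, fell in the female DMS by 0.72 on the log2 scale (SE 0.11, edgeR adjusted p = 0.0444), 1 of 2 genes called there, and no other target was called in the 9 comparisons. The median of the targets was -0.16 in the female DMS, where Zfp36l2 had its most negative value of the 9, and between -0.07 and 0.02 in the other 8. Whether the targets and Zfp36l2 are linked there was not tested.

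Immediate early genes, to which Zfp36 is often counted, had medians of different sign in the sexes in the PFC and DMS. In the female PFC and DMS the medians were -0.24 and -0.27, with 19 of 21 genes below 0 in both, and in the male PFC and DMS they were 0.19 and 0.18, with 2 and 1 of 21 below 0. In the NAc the medians were -0.01 in females and 0.14 in males, in the Amy 0.16 and 0.08, and in the male VTA 0.07. The difference between the sexes was not tested for the list. Zfp36 did not share the sign in the female PFC (0.26) or the male DMS (-0.11). The 1 immediate early gene called was the transcription factor Egr3, which rose in the female Amy by 0.51 (SE 0.11, edgeR adjusted p = 0.027). In the same comparison the median of 9 oligodendrocyte markers was -0.47 and that of 6 markers of cortical projection neurons 0.69, with Slc17a7, Tbr1 and Neurod6 called, and their part in the female Amy values was not tested.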

How the data were processed

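Total RNA from tissue punches was sequenced as stranded poly(A) libraries, 119 in all. The authors trimmed reads (cutadapt 2.9), aligned them to mm10 (STAR 2.7.3a) and estimated expression with RSEM 1.3.1, per the labels and methods, and deposited expected counts per gene symbol in 2 tables, with the VTA, NAc and Amy in 1 and the remaining regions in the other. Each column was matched to its library by name, and 0 columns were unused. Expected counts were rounded to whole numbers. Depth limits Zfp36 most, and p-values measure only the spread between these samples.

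Genes were filtered (filterByExpr), TMM-scaled and tested with edgeR 4.0.16 (robust quasi-likelihood, Benjamini-Hochberg over all genes tested), with R 4.3.3. DESeq2 1.42.0, its size factors, no filter, 1 fit per region, exact permutation and left-out libraries were alternatives. Log2 CPM used a prior count of 2. Intervals of 95% took the t quantile at edgeR's total degrees of freedom. Correlations used 100000 permutations within groups, with 1e-05 the smallest p these can give (Python 3.11.15, scipy 1.17.1). The fits were tested on simulated data. Regions from different tables were compared on the counts of both, so these pairs hold any difference between the tables.

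The members and the 18 gene lists were chosen with earlier results of these data known. Named genes were the members, for each the 5 nearest by r within groups and over group means, up to 5 called genes per list, and region markers.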

Additional observations from a re-analysis of the deposited data

Results flagged for a closer look

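In 9 of 60 groups of libraries and members (15%), 1 library stood far from the others of its group by Dixon's test, which marks about 1 in 20 groups by chance. For Zfp36, the library was FTL_278 in vehicle-treated male PFC, at 2.14 CPM with the nearest at 1.47, FTL_279 in THC-treated male PFC, at 1.34 CPM with the nearest at 1.78, and FTL_305 in THC-treated male DMS, at 2.81 CPM with the nearest at 2.27. FTL_376 in the THC-treated male VTA had 5.26 CPM of Zfp36 with the nearest at 3.28, and its red blood cell markers summed to 4620 CPM, where the others of its group had between 157 and 1453. The part of blood in its level was not tested.

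For Zfp36l1, FTL_328 in the THC-treated male NAc had 16.9 CPM with the nearest at 15.7, and FTL_358 in the vehicle-treated female VTA had 36.0 CPM with the nearest at 28.9. For Zfp36l2, FTL_275 in the vehicle-treated male PFC had 21.6 CPM with the nearest at 19.9. In the male VTA, FTL_371 (vehicle) was low at 34.6 CPM with the nearest at 39.4, and FTL_379 (THC) was low at 27.2 CPM with the nearest at 35.9.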

How the results depend on the processing

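No member was called for THC in the 9 groups other than the female VTA under any alternative. These include 35 fits of the male NAc, female Amy and male VTA that each left out 1 library (lowest and highest count 0 and 0). None was called for sex or for sex by THC in the PFC, DMS, NAc and Amy under the alternatives run for these, which left out no single library. The count of region pairs past the limits was 17 of 30, between 13 and 18 with other size factors, no filter, DESeq2 or 1 sex, and 9 with THC in place of vehicle libraries. Values that changed sign were small in the main fits. Zfp36 in the female Amy (-0.01) was 0.0063 with no filter, 0.0666 in the permutation test, and between -0.13 and 0.16 with a library left out. Zfp36l1 in the male Amy (0.01) was -0.0674 without FTL_344 and FTL_356 and -0.0127 in the permutation test. Zfp36 in the male VTA (0.03) was between -0.17, without FTL_376, and 0.13. For Zfp36l1, DMS minus NAc (-0.05) was 0.16 in males and 0.15 with THC libraries, DMS minus Amy (-0.02) was 0.12 and 0.0344, and NAc minus Amy (0.03) was -0.0396 and -0.11. In females DMS minus NAc of Zfp36l1 was -0.29 (edgeR adjusted p = 0.0425). The cause was not tested. Zfp36 in DMS minus Amy (0.41) was called under none of its 6 alternatives (0.24 to 0.40). Outside the VTA, with all VTA libraries in the adjustment, the adjusted permutation p for r was under 0.05 in 5 of 12 member correlations and 3 of 84 with list scores. With the VTA entered by its males alone, chosen after seeing the data, these were 4 and 2, and in the male VTA 0 of 3 and 3 of 21. No paired analysis was possible because the labels number each library once and do not give the mouse. Leaving out libraries was run for the male NAc, female Amy and both VTA comparisons.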
